A study of Monodelphis domestica with 2 samples.

Results

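L5NP nuclei, named for the near-projecting neurons of cortical layer 5, made up 744 of the 20150 glutamatergic nuclei and of the 32764 labelled nuclei in a single-nucleus RNA-seq survey of the primary visual area (V1) in the marsupial Monodelphis domestica, an opossum. They were chosen by the deposited subclass label of each nucleus and were described against the 19406 nuclei of the 7 other glutamatergic subclasses. Those were 9864 IT_A, 1726 IT_B, 2499 IT_C and 373 IT_D nuclei (intratelencephalic, projecting within the cortex), 1206 L5PT nuclei (layer 5, pyramidal tract), 3629 L6CT nuclei (layer 6, corticothalamic) and 109 L6b nuclei. Both animals were untreated adult males, 1.5 years old (animal 1) and 2 years old (animal 2). V1 of both hemispheres was pooled by animal, nuclei were sorted for the DNA dye Draq5, and the suspension of each animal was split over 2 droplet libraries (1A and 1B, 2A and 2B). The libraries of an animal are repeats of a single suspension, so n is 2 animals throughout. Because a different experimenter handled each animal, animal, age and handling cannot be told apart.

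Near-projecting neurons are a minority of layer 5 cells in the mammalian cortex. Unlike pyramidal tract neurons they send no long axon out of the cortex, and unlike IT neurons they send none to the other hemisphere, so that their axons stay largely local. In the mouse they are recognised by transcripts such as NXPH3, a secreted neurexophilin that binds neurexins, TSHZ2, a zinc-finger transcription factor, and FEZF2, the transcription factor that specifies deep-layer projection neurons. Layer 5 and layer 6 neurons that leave the cortex share FEZF2 and its target BCL11B, whereas IT neurons rely on other factors such as CUX2. In the paper's transfer of mouse labels, opossum L5NP, like IT_A and IT_C, matched mouse IT subclasses only weakly and inconsistently. By the same transfer L5PT, L6CT and L6b aligned strongly with the mouse.

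The label was first checked against those 3 markers. NXPH3 was at 19.6, 29.8, 28.7 and 25.0 CPM (UMIs of a gene relative to all UMIs of the sum) in the 4 L5NP libraries (1A, 1B, 2A and 2B, in that order here and below) and at 3.09, 2.67, 3.35 and 2.90 CPM in the other glutamatergic nuclei. UMIs are unique molecular identifiers, 1 per captured transcript. FEZF2 was at 35.8, 46.6, 51.9 and 54.8 CPM against 12.0, 13.2, 10.5 and 11.2. TSHZ2 was at 5.77, 5.59, 15.8 and 10.6 CPM against 2.17, 1.83, 2.00 and 1.94. Every L5NP library was above every library of the other nuclei for each of the 3 genes, but TSHZ2 was sparse and differed most between libraries. The log2 fold changes were 2.90 ± 0.22, adjusted p = 0.00014 for NXPH3, 2.00 ± 0.41, adjusted p = 0.017 for TSHZ2 and 1.80 ± 0.18, adjusted p = 0.00051 for FEZF2 (edgeR's quasi-likelihood test, Benjamini-Hochberg adjusted over all genes). The study used canonical markers when it named the subclasses, so these values describe the label and do not test it.

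None of the 3 markers was limited to L5NP. NXPH3 was at 21.8 and 21.8 CPM in L6b and at 12.1 and 15.1 CPM in L6CT in animals 1 and 2, against 24.5 and 26.9 CPM in L5NP. In the fit over all 8 subclasses NXPH3 in L5NP did not pass the threshold against L6b (log2 difference 0.24 ± 0.40, adjusted p = 0.84) or L6CT (0.79 ± 0.31, adjusted p = 0.15). FEZF2 was at 35.9 and 32.7 CPM in L5PT, which did not pass against L5NP either (0.27 ± 0.18, adjusted p = 0.39), at 26.6 and 29.2 CPM in IT_C and at 24.7 and 26.7 CPM in L6CT. TSHZ2 had its top level of all 18 subclasses in endothelial nuclei, at 206 and 397 CPM. Its difference between L5NP and IT_D missed the threshold (0.25 ± 0.60, adjusted p = 0.84), as did that between L5NP and L6b (0.96 ± 0.84, adjusted p = 0.64).

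In single nuclei the markers were detected in a minority. A UMI of FEZF2 was present in 27.3% of L5NP nuclei of animal 1 (119 of 436, exact 95% interval 23.2 to 31.7) and 29.9% of animal 2 (92 of 308, 24.8 to 35.3). For NXPH3 the shares were 16.5% (13.2 to 20.3) and 16.6% (12.6 to 21.2), and for TSHZ2 3.21% (1.77 to 5.33) and 5.84% (3.50 to 9.08). The corresponding shares in the other glutamatergic nuclei were 9.46% and 8.26% for FEZF2, 2.34% and 2.58% for NXPH3 and 1.39% and 1.39% for TSHZ2. Oligodendrocytes, which should lack these transcripts and were shallower (median 1924 and 1909 UMIs), were at 0.453% or less for each. With every nucleus thinned to 2000 UMIs the shares in L5NP fell to 6.89% and 10.8% for FEZF2, 4.99% and 4.55% for NXPH3 and 1.19% and 2.10% for TSHZ2. No UMI of any of the 3 was seen in 60.8% and 56.8% of L5NP nuclei.

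The label was then passed between the animals. The study clustered nuclei of both animals together, so the shares below describe the joint label and do not test it. When each animal's nuclei were given a subclass by the 15 nearest labelled nuclei of the other animal, 423 of the 436 L5NP nuclei of animal 1 (97.0%, exact 95% interval 94.96 to 98.40) and 292 of the 308 of animal 2 (94.8%, 91.7 to 97.0) received L5NP. Of the 29 others, 22 received L6CT, 11 in each animal. In the opposite direction 34 of 1677 and 16 of 1952 L6CT nuclei received L5NP, against 0 of 582 and 0 of 624 L5PT nuclei and 1 of 1124 and 0 of 1375 IT_C nuclei. With nuclei thinned to 1000 UMIs 75.5% and 85.1% of L5NP nuclei received L5NP in animals 1 and 2, and 92 of 432 (21.3%) and 36 of 308 (11.7%) received L6CT, against 2.52% and 3.57% without thinning. At the finer level of types, 8 nuclei typed as L5NP had the subclass L6CT, 4 in each animal. Together they held 79 UMIs of FOXP2, a corticothalamic marker, and 2 of NXPH3.

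L5NP nuclei formed 4.79% and 4.81% of glutamatergic nuclei in libraries 1A and 1B, and 3.21% and 2.48% in 2A and 2B (223 of 4654, 213 of 4431, 148 of 4612 and 160 of 6453 nuclei). By animal this was 4.80% (exact 95% interval 4.37 to 5.26) and 2.78% (2.49 to 3.11), a mean of 3.79% ± 1.43 (SD, n = 2). The exact intervals were 4.20 to 5.44 and 4.20 to 5.48 for 1A and 1B, and 2.72 to 3.76 and 2.11 to 2.89 for 2A and 2B. Both libraries of animal 1 were above both of animal 2. With 2 animals no test between them was possible, and the intervals cover counting error only.

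**Figure D1:**
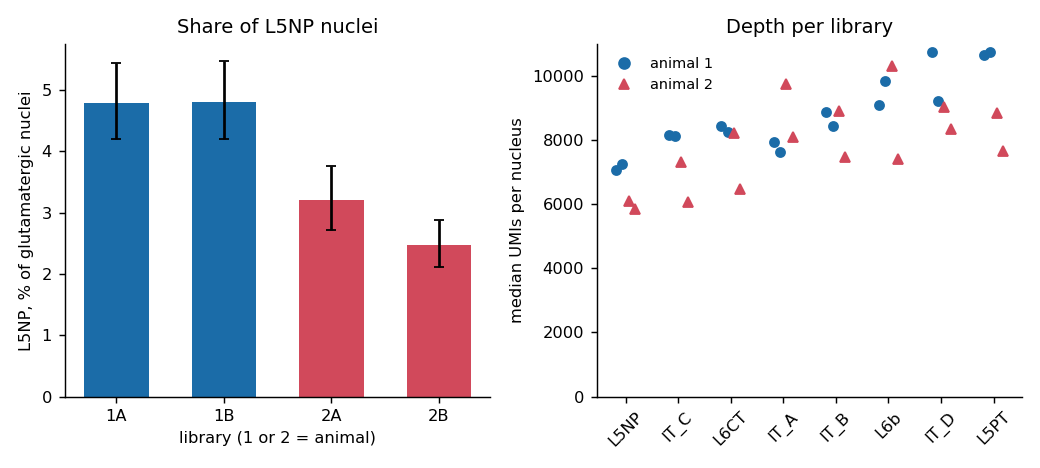
Left, L5NP nuclei as a percentage of glutamatergic nuclei in each library, with exact 95% intervals; right, the median UMIs per nucleus in each library for the 8 glutamatergic subclasses. The share was 4.80% in animal 1 and 2.78% in animal 2, and L5NP had the lowest median depth of the 8 subclasses in all 4 libraries.

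Among glutamatergic subclasses L5NP nuclei had the lowest median UMI count in each of the 4 libraries, at 7073, 7255, 6112.5 and 5839.5 UMIs. The means over animals were 6605 ± 794 UMIs (SD, n = 2) in L5NP and 8149 ± 43.8 in the other glutamatergic nuclei, and the median genes detected were 3102.5 and 2714.5 against 3184 and 3067 in animals 1 and 2. The L5NP sums held 3344363 UMIs in animal 1 and 2119807 in animal 2. The deposited Scrublet calls marked 30 L5NP nuclei (4.03%) as doublets, against 2.58% of the other glutamatergic nuclei, and these nuclei were kept. The L5NP nuclei of any pair of libraries shared 0 barcodes with each other, and 13 to 26 barcodes were shared by any pair of libraries over all labelled nuclei.

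Summed over nuclei, the profile of L5NP was compared with that of all other glutamatergic nuclei, animal by animal, to ask which genes set the subclass apart. Of 21358 genes tested, 949 were higher in L5NP (4.44%) and 1490 were lower (6.98%), so that 11.4% were called at an adjusted p under 0.05 by edgeR. Both animals gave 1 direction for 2438 of the 2439. The subclasses were drawn by the study from these same counts, so the p-values describe the subclass and are not independent evidence of it. With L5NP nuclei named by transfer from the other animal over other genes, 2394 genes were called, 2300 of them among the 2439. The transferred labels were the deposited ones, drawn from all genes of both animals, so this overlap is not independent evidence either. With the animal as a block, 4778 genes were called, 1960 higher and 2818 lower. Because IT_A makes up 9864 of the 19406 comparison nuclei, L5NP was also set against the unweighted mean of the 7 subclasses, where 1597 genes were higher and 1074 lower of 17871. The TMM scaling lowered every log2 value by 0.19 relative to the ratio of CPM. Summed astrocyte markers, at 577 to 766 CPM against 279 to 341 CPM, moved with the contrast, and their part in the gene counts was not tested.

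**Figure D2:**
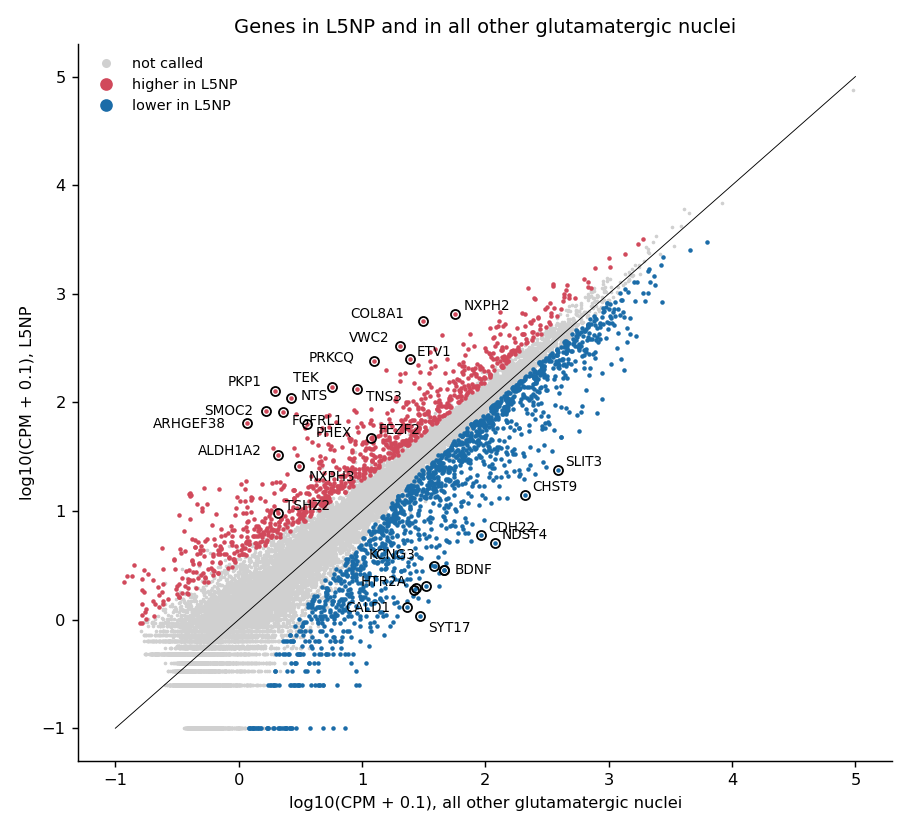
Mean level of each tested gene in L5NP (vertical) against all other glutamatergic nuclei (horizontal), both as log10(CPM + 0.1) over the 2 animals; red and blue points passed an adjusted p of 0.05, and circles mark named genes, of which TLE3, FKBP5 and ONECUT2 are unlabelled beside HTR2A. PKP1 and ARHGEF38 lie farthest above the line of equality among the named genes and SYT17 farthest below.

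The 12 genes with the largest excess in L5NP, among 365 named genes that met the rule on level, were led by a desmosomal protein. PKP1, plakophilin 1 of the desmosomal plaque, was at 128, 117, 126 and 134 CPM in the 4 libraries against 2.32, 2.05, 1.64 and 1.48 CPM (log2 fold change 5.89 ± 0.18, adjusted p = 2.0e-05). ARHGEF38, a guanine nucleotide exchange factor, was at 92.3, 69.6, 42.6 and 54.8 CPM against 1.28, 1.09, 0.898 and 0.960 (log2 fold change 5.77 ± 0.27, adjusted p = 3.0e-05). For both genes the lowest L5NP library exceeded the highest other library many times over, and L5NP had the top level of all 18 subclasses. SMOC2, a secreted calcium-binding matrix protein, was at 44.4, 46.6, 126 and 114 CPM against 1.51, 1.45, 1.75 and 1.52 (log2 fold change 5.51 ± 0.44, adjusted p = 0.00019). Its level in animal 2 was well above that in animal 1, and Lamp5 and Frem1 interneurons carried more of it than L5NP. NTS, the precursor of the neuropeptide neurotensin, was at 104, 120.5, 99.1 and 113 CPM against 2.94, 3.14, 2.18 and 2.03 (log2 fold change 5.23 ± 0.19, adjusted p = 2.0e-05), with no overlap and little spread between animals. Outside L5NP its next level was in IT_C, at 15.2 and 13.2 CPM.

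The other 8 included signalling enzymes, receptors and matrix genes. FGFRL1, an FGF receptor without a kinase domain, had 64.6 to 92.3 CPM in the L5NP libraries against 1.53 to 2.97 CPM (log2 fold change 5.04 ± 0.27, adjusted p = 3.6e-05). TEK, the angiopoietin receptor best known from endothelium, had 129 to 146 CPM in the L5NP libraries against 4.20 to 7.25 CPM (log2 fold change 4.44 ± 0.22, adjusted p = 3.4e-05). Endothelial nuclei had far more TEK, but L5NP was second of all 18 subclasses, and the 3 endothelial markers summed to 15.8 to 23.0 CPM in the L5NP libraries. PRKCQ, protein kinase C theta, had 209 to 261 CPM in the L5NP libraries against 10.1 to 14.6 CPM (log2 fold change 4.10 ± 0.17, adjusted p = 2.1e-05). PHEX, a membrane endopeptidase known from phosphate balance, had 47.9 to 78.8 CPM in the L5NP libraries against 3.10 to 3.68 CPM (log2 fold change 3.99 ± 0.19, adjusted p = 3.4e-05). For these 4 genes no library of L5NP came near the range of the others. ALDH1A2, which makes retinoic acid from retinaldehyde, had 26.9 to 35.8 CPM in the L5NP libraries against 1.42 to 2.62 CPM (log2 fold change 3.87 ± 0.26, adjusted p = 9.0e-05). COL8A1, a short-chain collagen, was at 631 and 481 CPM against 34.3 and 27.7 CPM (log2 fold change 3.98 ± 0.16, adjusted p = 2.1e-05) in animals 1 and 2. VWC2, a secreted antagonist of BMP signalling, was at 326 and 333 CPM against 24.4 and 15.8 CPM (log2 fold change 3.86 ± 0.19, adjusted p = 3.4e-05). In L6b VWC2 was at 541 and 436 CPM. TNS3, a tensin of focal adhesions, was at 119 and 148 CPM against 6.0 and 11.9 CPM (log2 fold change 3.68 ± 0.34, adjusted p = 0.00036). Of all 18 subclasses, FGFRL1 and TNS3 were highest in oligodendrocyte precursors and VWC2 in Pvalb interneurons.

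At the other end, 656 named genes met the rule and the 12 largest deficits included 2 genes tied to neuromodulation and plasticity. HTR2A, the excitatory serotonin 2A receptor, was at 2.31, 0.621, 1.85 and 2.88 CPM in the L5NP libraries against 35.1, 36.3, 28.9 and 30.9 CPM (log2 fold change -4.35 ± 0.27, adjusted p = 6.6e-05). By subclass HTR2A was at 51.3 and 41.0 CPM in IT_A and 58.9 and 45.9 CPM in IT_B, but at 2.06 and 2.24 CPM in L5PT, so the low level was shared with that subclass. BDNF, the activity-regulated neurotrophin, was at 4.61, 0.621, 4.63 and 0.961 CPM against 32.5, 34.7, 57.5 and 57.8 (log2 fold change -4.26 ± 0.43, adjusted p = 0.00056). L6CT (2.68 and 3.65 CPM) and L6b (1.82 and 3.97 CPM) were as low for BDNF, and IT_D was highest at 153 and 159 CPM. SYT17, an atypical synaptotagmin, was at 1.15, 1.86, 0.927 and 0 CPM against 31.5, 30.6, 28.2 and 28.2 (log2 fold change -4.95 ± 0.32, adjusted p = 8.1e-05). SLIT3, a secreted repellent of growing axons, was at 16.7, 34.8, 35.2 and 8.65 CPM against 443, 419.9, 349 and 336 (log2 fold change -4.20 ± 0.16, adjusted p = 2.0e-05), and its order in the L5NP libraries did not follow the animals.

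The remaining 8 of the 12 were as follows. NDST4 and CHST9, both sulfotransferases that modify sugar chains, were at 5.68 and 4.25 CPM against 129 and 109 CPM and 14.7 and 13.2 CPM against 215 and 204 CPM in animals 1 and 2, with log2 fold changes of -4.73 ± 0.19 and -4.09 ± 0.14. The actin-binding caldesmon gene CALD1 had -4.37 ± 0.29, the cadherin CDH22 -4.28 ± 0.30 and the potassium channel subunit KCNG3 -3.97 ± 0.30 on the same scale. The transcription factor ONECUT2 had -4.19 ± 0.32, the corepressor TLE3 -4.17 ± 0.26 and FKBP5, a chaperone of the glucocorticoid receptor, -4.11 ± 0.27. Adjusted p-values of these 8 genes lay between 2.0e-05 and 0.00014 (edgeR). Against the unweighted mean of the 7 subclasses, 4 of the 12 deficits were no longer called, at log2 values of -1.68 for SYT17, -1.21 for CDH22, -2.03 for TLE3 and -1.70 for FKBP5.

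A gene was counted as restricted when both animals had at least 20 CPM in L5NP and at least 2-fold more than in each of the 7 other glutamatergic subclasses. This held for 40 of 6005 genes over that level (0.666%), of which 32 had a symbol. The other subclasses had between 10 (IT_C) and 81 (IT_D) such genes, with the larger numbers in IT_D and L6b, the subclasses with fewest nuclei. NTS stood highest by this measure, at least 7.39-fold above every other glutamatergic subclass in both animals, followed by SMOC2 (6.46-fold), VAV3, also a guanine nucleotide exchange factor (6.26-fold), and PHEX (6.13-fold). The 40 held 2 enzymes that make retinoic acid, ALDH1A1 at 201 and 192 CPM against 18.3 and 12.9 CPM and ALDH1A2 at 35.0 and 30.2 CPM against 2.44 and 1.50 CPM. They also held the growth factor IGF1 (51.7 and 51.9 CPM), the integrin subunit ITGA2 (66.1 and 49.5 CPM), the calcium sensor SYT9 (187 and 187 CPM) and the transcription factor TSHZ3 (868 and 970 CPM). Counting also the GABAergic and non-neuronal subclasses, 10 of the 40 had their top level in L5NP at 2-fold or more, among them NTS, PHEX, PKP1, ALDH1A2, PRKCQ, MOB3B, ARHGEF38, ITGA2 and SYT9.

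Fewer genes were restricted in their absence, as in each of the other glutamatergic subclasses. At 2-fold or more below each other glutamatergic subclass in both animals were 9 genes, 7 of them with a symbol. The other subclasses had between 1 (IT_C) and 37 (IT_D) such genes, so the count in L5NP lay within their range. FAT3, an atypical cadherin, was at 165 and 230 CPM in L5NP against 1392 and 1262 CPM in the other nuclei, and EFNA5, an ephrin ligand, at 120 and 123 against 388 and 399 CPM. CACNA2D3, a calcium channel subunit, was at 138 and 222 against 497 and 877 CPM, and PTK2B, a calcium-activated tyrosine kinase, at 61.9 and 66.0 against 302 and 303 CPM. BRINP2, SPOCK1 and TPD52L1 completed the named ones.

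Of 45 projection neuron transcription factors tested, 12 were higher and 7 lower in L5NP, with a median log2 fold change of -0.13 beside -0.06 over all genes. That is 26.7% higher and 15.6% lower, beside 5.38% and 8.86% of all genes with a symbol (14.2% called, median -0.04). With the animal as a block 16 were higher and 15 lower. The higher group held deep-layer factors. ETV1, an ETS factor of layer 5, was at 229.6 and 270.3 CPM against 27.3 and 21.1 CPM in animals 1 and 2 (log2 fold change 3.18 ± 0.16, adjusted p = 3.4e-05), and TLE4, a corepressor of deep layers, at 728 and 629.8 CPM against 130.4 and 131 CPM (log2 fold change 2.19 ± 0.12, adjusted p = 4.4e-05). BCL11B (CTIP2), the FEZF2 target in subcortical projection neurons, was at 1209 and 1137 CPM against 391 and 316 CPM (log2 fold change 1.54 ± 0.12, adjusted p = 0.00018), and FOXP2, the corticothalamic factor, at 802 and 719.9 CPM against 347 and 286 CPM (log2 fold change 1.08 ± 0.12, adjusted p = 0.00087). Against single subclasses these genes behaved differently. BCL11B did not pass against L5PT, L6CT or L6b (log2 differences -0.08 ± 0.22, 0.00 ± 0.22 and 0.23 ± 0.22, adjusted p between 0.69 and 1.00), and TLE4 did not pass against L6CT or L6b (0.35 ± 0.21 and 0.14 ± 0.22). FOXP2 in L5NP lay between, at 802 and 719.9 CPM against 1554 and 1539 CPM in L6CT (-1.14 ± 0.16, adjusted p = 0.00022) and 3.15 ± 0.17 above L5PT on the log2 scale. ETV1 was higher in L5NP than in every other glutamatergic subclass except L6b (0.83 ± 0.25, adjusted p = 0.067).

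**Figure D3:**
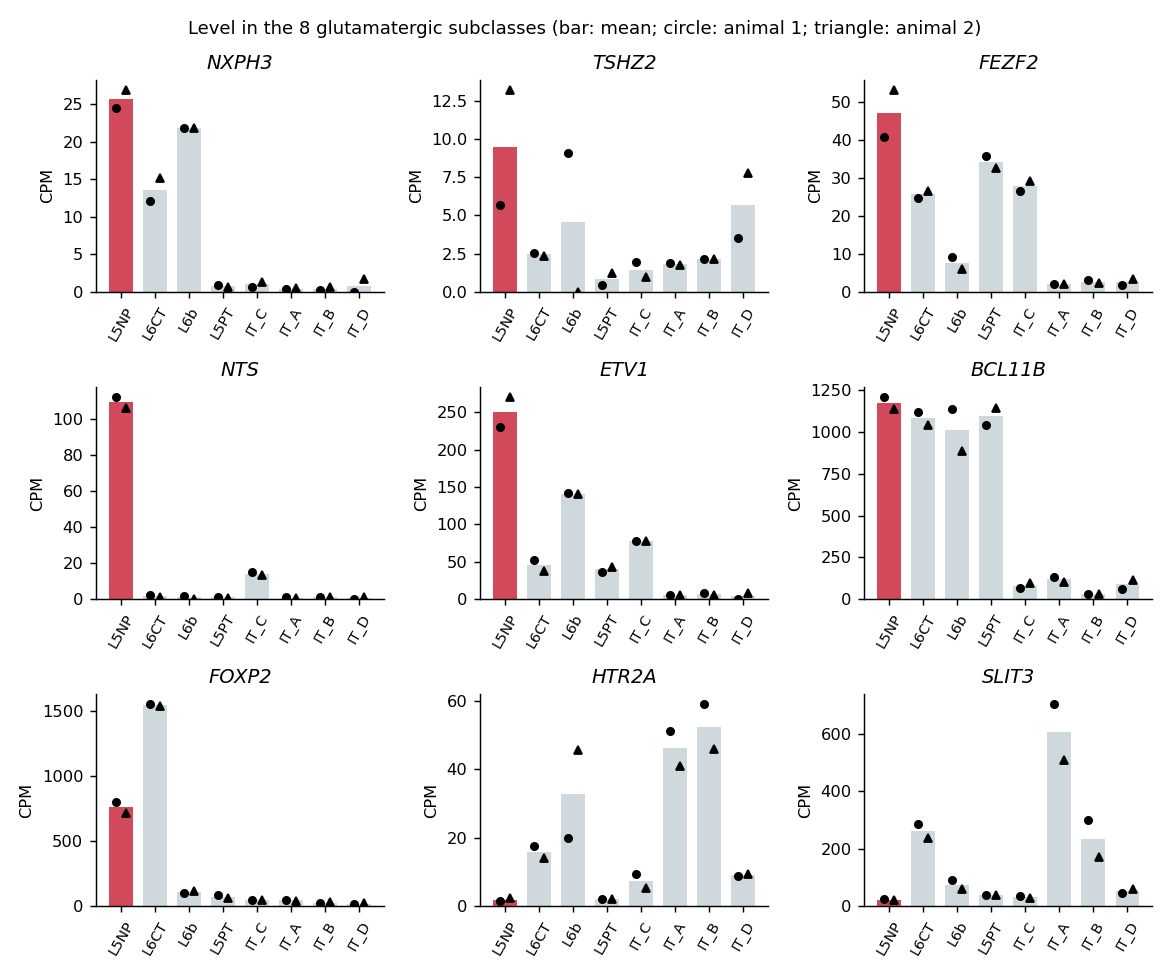
CPM of 9 genes in the 8 glutamatergic subclasses (bars, mean of 2 animals; circles, animal 1; triangles, animal 2), on linear axes from 0. NTS is near 0 outside L5NP and IT_C, BCL11B is at 887 CPM or more in L5NP, L6CT, L6b and L5PT, and HTR2A and SLIT3 have their lowest mean in L5NP.

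All 3 teashirt genes on the list were higher. TSHZ1 was at 44.3 and 29.7 CPM against 15.2 and 13.9 CPM (log2 fold change 1.17 ± 0.19, adjusted p = 0.0062). TSHZ3 was at 868 and 969.9 CPM against 254 and 240.5 CPM (log2 fold change 1.70 ± 0.12, adjusted p = 0.00011). RORB, the layer 4 factor of the mouse, was also higher in L5NP, at 779 and 674 CPM against 312 and 293 CPM (log2 fold change 1.07 ± 0.12, adjusted p = 0.00078). Its level varied widely between subclasses. It was at 844 and 772 CPM in IT_C and 1344 and 1593 CPM in IT_B, but at 49.4 and 55.1 CPM in L6CT and 62.9 and 41.4 CPM in L5PT. Factors of upper layers were among those that were lower. CUX2 was at 42.5 and 72.2 CPM against 225 and 353 CPM (log2 fold change -2.57 ± 0.31, adjusted p = 0.0014), and was not called against the unweighted mean of subclasses. CUX1 was at 35.6 and 42.5 CPM against 122 and 134 CPM (log2 fold change -1.92 ± 0.16, adjusted p = 0.00021). NR2F1 (COUP-TFI), which patterns cortical areas, was at 10.8 and 13.7 CPM against 65.9 and 64.3 CPM (log2 fold change -2.63 ± 0.17, adjusted p = 8.2e-05). SOX5, of early deep-layer neurons, did not pass. It was at 941 and 952 CPM against 706 and 658 CPM (adjusted p = 0.17, or 0.0031 with the animal as a block).

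A list of genes known from mouse near-projecting neurons beyond the 3 markers gave 5 higher and 0 lower of 8 tested (62.5% higher, beside 5.38% of all genes with a symbol), with a median log2 fold change of 1.74. Of the 9 listed genes with a symbol, TRHR was not tested and had no UMI in the L5NP libraries. It also had none in IT_D, L5PT, L6CT or L6b. The summed level of the list was 1570 to 1771 CPM in the L5NP libraries, but also 1628 to 1840 CPM in L6b and 1211 to 1511 CPM in Sst interneurons. ETV1 and TLE4 were among them. NXPH2, a neurexophilin like NXPH3, was at 598 and 716 CPM against 65.8 and 47.0 CPM (log2 fold change 3.36 ± 0.17, adjusted p = 3.6e-05). ITGA8, an integrin subunit, was at 7.77 and 3.77 CPM against 1.29 and 1.11 CPM (log2 fold change 2.13 ± 0.41, adjusted p = 0.013). VWC2L, a secreted relative of VWC2, was at 29.0 and 17.5 CPM against 10.7 and 5.67 CPM (log2 fold change 1.35 ± 0.33, adjusted p = 0.037). The other 3 were not called. HTR2C, a serotonin receptor, was at 5.98 and 6.13 CPM against 8.40 and 8.65 CPM (log2 -0.69 ± 0.26, adjusted p = 0.15). LYPD1 was at 24.2 and 20.8 CPM against 20.8 and 15.2 CPM (log2 0.14 ± 0.19, adjusted p = 0.74). SLA2 was at 5.68 and 4.72 CPM against 3.61 and 2.60 CPM (log2 0.57 ± 0.33, adjusted p = 0.37). NXPH2 was not limited to L5NP. It was at 924 and 964 CPM in L6b, a difference that did not pass (-0.51 ± 0.22, adjusted p = 0.25). NRXN3, a presynaptic neurexin of the family that neurexophilins bind, was lower in L5NP, at 3046 and 2948 CPM against 6538 and 5964 CPM (log2 fold change -1.25 ± 0.12, adjusted p = 0.00044).

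Markers of the other deep-layer subclasses split. The counts of these short lists stand beside 5.38% higher and 8.86% lower of all genes with a symbol. Of 5 L6CT markers SYT6 and FOXP2 were higher and NTSR1 was lower, and of 6 L5PT markers BCL11B was higher and POU3F1 and LRATD2 were lower. Against the unweighted mean of subclasses 2 L5PT markers were higher and 0 lower. POU3F1 and LRATD2 rested on 2 and 3 UMIs in L5NP, with 14.0-fold (counting interval 3.86 to 116) and 4.62-fold (1.57 to 22.5) more in the other nuclei. Of 5 L6b markers CPLX3, a complexin, was higher at 8.07 and 8.49 CPM against 0.264 and 0.342 CPM (log2 fold change 4.55 ± 0.42, adjusted p = 0.00034), and COL12A1 and MOXD1 were lower. Of 8 IT markers WHRN and RORB were higher and CUX2 and RASGRF2 were lower. Against the unweighted mean of subclasses 5 IT markers were higher and 0 lower, beside 1597 and 1074 of all 17871 genes, and RASGRF2 changed sign. SLC17A6, the vesicular glutamate transporter VGLUT2, was higher in L5NP at 90.9 and 103 CPM against 22.2 and 23.2 CPM (log2 fold change 1.90 ± 0.14, adjusted p = 0.00014) and was the only one of 5 pan-glutamatergic markers called. With the animal as a block 5 of the 5 L6CT markers and 3 of the 5 pan-glutamatergic markers were called, SV2B and TBR1 as lower.

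**Figure D4:**
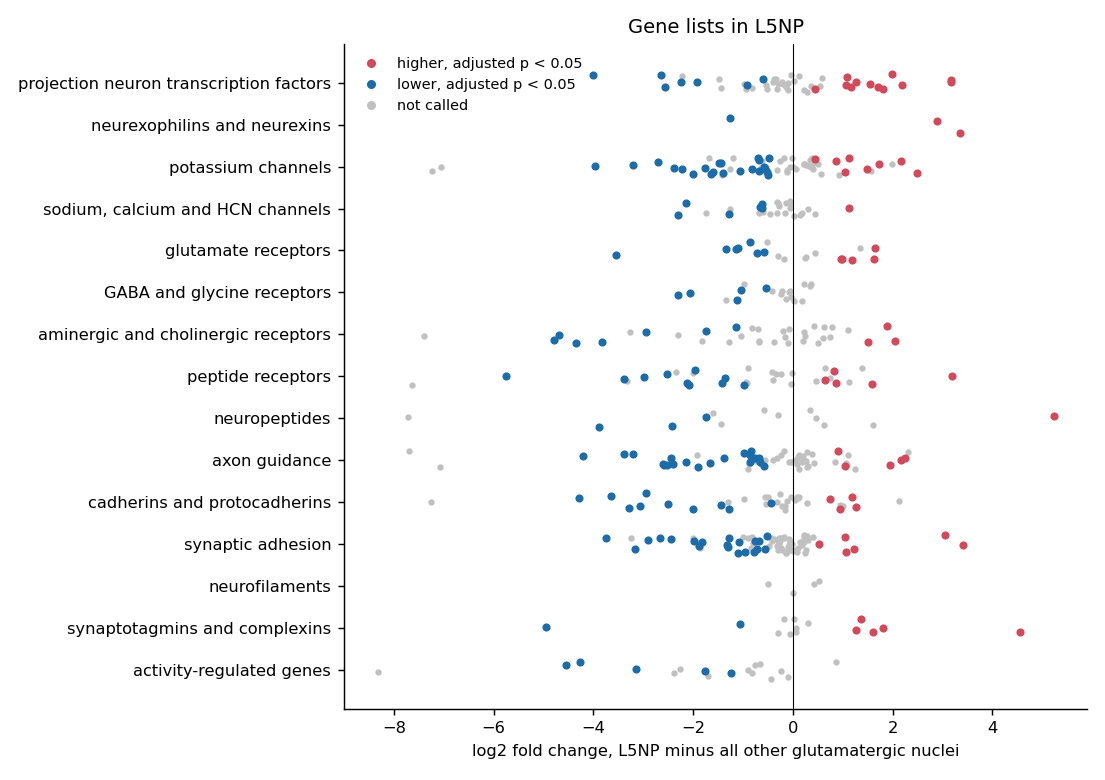
Log2 fold changes (L5NP minus all other glutamatergic nuclei, edgeR) of the genes in 15 lists, 1 point per gene with a random vertical offset; red and blue points had an adjusted p under 0.05. Called genes were lower more often than higher in the channel, GABA receptor, guidance, cadherin and adhesion lists, as over all genes tested (949 higher, 1490 lower), and against the unweighted mean of subclasses cadherins had 8 and 8, with the farthest points to the left among genes with few or no UMIs in L5NP.

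Glutamate receptor genes went both ways, with 5 of 19 higher and 7 lower (26.3% and 36.8%, beside 5.38% and 8.86% of all genes with a symbol, median -0.18). All 4 AMPA receptor subunits were lower. GRIA4 was at 68.5 and 90.6 CPM against 775 and 842 CPM in animals 1 and 2 (log2 fold change -3.55 ± 0.18, adjusted p = 3.5e-05). GRIA2 was at 1172 and 1251 CPM against 2304 and 2395 CPM (log2 fold change -1.15 ± 0.13, adjusted p = 0.0008). GRIA3 and GRIA1 had log2 fold changes of -1.10 ± 0.12 and -0.73 ± 0.11 (adjusted p = 0.00087 and 0.0044). Kainate receptor subunits split. GRIK3 was higher, at 1235 and 1228 CPM against 409 and 291 CPM (log2 fold change 1.63 ± 0.15, adjusted p = 0.00034). GRIK4 was higher, at 1767 and 1684 CPM against 733 and 809.8 CPM (log2 fold change 0.96 ± 0.13, adjusted p = 0.0021). GRIK1 was higher as well (log2 fold change 1.65 ± 0.36, adjusted p = 0.023), whereas GRIK2 was lower (log2 fold change -1.34 ± 0.11, adjusted p = 0.0002). By subclass GRIK3 was about as high in L6b (1200.2 and 1192 CPM) and L6CT (1045 and 884 CPM) and was at 90.6 and 63.1 CPM in IT_A. GRIK4 in L5NP exceeded its level in each other glutamatergic subclass in both animals.

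Among the remaining glutamate receptors GRM4, a presynaptic metabotropic receptor, was higher (log2 fold change 0.98 ± 0.16, adjusted p = 0.0064). The NMDA receptor subunit GRIN2B was lower (log2 fold change -0.85 ± 0.13, adjusted p = 0.0043), as was the delta receptor GRID1 (log2 fold change -0.57 ± 0.13, adjusted p = 0.024). GRIN2C was called as higher (log2 fold change 1.18 ± 0.31, adjusted p = 0.048), but not when nuclei were named from other genes (adjusted p = 0.054).

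Of 19 GABA and glycine receptor genes 0 were called higher and 5 lower (26.3%, beside 8.86% of all genes with a symbol, median -0.21). With the animal as a block 1 was higher and 6 were lower, and DESeq2 and equal nuclei also gave 1 higher. GABRA4, a subunit of extrasynaptic GABA-A receptors, was at 30.8 and 38.2 CPM against 147 and 145 CPM (log2 fold change -2.29 ± 0.15, adjusted p = 8.2e-05). GABRA2 was at 169 and 182 CPM against 304 and 325 CPM (log2 fold change -1.04 ± 0.13, adjusted p = 0.0014). GLRA2, a glycine receptor subunit, was at 17.9 and 23.1 CPM against 74.1 and 74.3 CPM (log2 fold change -2.07 ± 0.17, adjusted p = 0.0002). All 3 were lower in both animals. GABBR2, of the GABA-B receptor, was at 835 and 873 CPM against 1479 and 1767 CPM (log2 fold change -1.12 ± 0.15, adjusted p = 0.002). GABRA5 was the fifth (log2 fold change -0.54 ± 0.14, adjusted p = 0.044) and lost its call with nuclei named from other genes (adjusted p = 0.18).

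Receptors for serotonin, acetylcholine, noradrenaline and dopamine gave 3 higher and 7 lower of 35 (8.57% and 20%, beside 5.38% and 8.86% of all genes with a symbol, median -0.37). The higher ones included both D1-class dopamine receptors. DRD1 was at 45.2 and 36.8 CPM against 11.8 and 7.93 CPM (log2 fold change 1.88 ± 0.21, adjusted p = 0.00087). DRD5 was at 10.2 and 5.19 CPM against 2.12 and 1.24 CPM (log2 fold change 2.06 ± 0.42, adjusted p = 0.016). The muscarinic receptor CHRM2 was the third, at 8.07 and 8.96 CPM against 2.54 and 2.63 CPM (log2 fold change 1.51 ± 0.29, adjusted p = 0.012). Adrenergic receptors were among the lower ones. ADRA1B was at 2.39 and 3.77 CPM against 32.5 and 40.4 CPM (log2 fold change -3.83 ± 0.30, adjusted p = 0.00017). ADRA1D and ADRB1 had log2 fold changes of -4.79 ± 0.55 and -1.14 ± 0.24 (adjusted p = 0.0011 and 0.019). ADRA2C was also lower, on 2 UMIs in L5NP (22.6-fold, counting interval 6.25 to 187). Of the serotonin receptors, HTR1F (log2 fold change -2.94 ± 0.49, adjusted p = 0.0067) and HTR4 (log2 fold change -1.74 ± 0.24, adjusted p = 0.0027) were lower beside HTR2A. The balance depended on the comparison. Against the unweighted mean of subclasses 6 were higher and 5 lower, and with the animal as a block 5 were higher and 12 lower.

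Of 33 peptide receptors 5 were higher and 10 lower (15.2% and 30.3%, beside 5.38% and 8.86% of all genes with a symbol, median -0.90), or 3 and 6 against the unweighted mean of subclasses. RXFP1, a relaxin receptor, was higher at 364 and 439 CPM against 121 and 113 CPM (log2 fold change 1.59 ± 0.13, adjusted p = 0.00023). HCRTR2, an orexin receptor, was higher at 274 and 315 CPM against 162 and 165 CPM (log2 fold change 0.65 ± 0.13, adjusted p = 0.013). OPRD1, the delta opioid receptor, was higher at 30.5 and 26.4 CPM against 16.8 and 11.1 CPM (log2 fold change 0.86 ± 0.21, adjusted p = 0.04). CALCRL, a part of CGRP and adrenomedullin receptors, was higher too (log2 fold change 3.20 ± 0.42, adjusted p = 0.0021). NPR2 was called as higher (log2 fold change 0.82 ± 0.21, adjusted p = 0.04), but not with nuclei named from other genes (adjusted p = 0.094). The opioid receptors differed in direction. OPRK1, the kappa receptor, was lower at 1.20 and 1.42 CPM against 14.4 and 9.12 CPM (log2 fold change -3.38 ± 0.42, adjusted p = 0.0015). CCKBR, a cholecystokinin receptor, was lower at 12.9 and 16.5 CPM against 33.2 and 34.4 CPM (log2 fold change -1.42 ± 0.19, adjusted p = 0.0021). The VIP receptors VIPR1 and VIPR2 were lower, with log2 fold changes of -2.13 ± 0.28 and -1.35 ± 0.25 (adjusted p = 0.0019 and 0.01).

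Of 13 neuropeptide genes NTS alone was higher and 3 were lower (7.69% and 23.1%, beside 5.38% and 8.86% of all genes with a symbol, median -0.57). NTSR1, a receptor for neurotensin, was lower in L5NP, at 51.7 and 48.6 CPM against 80.8 and 91.0 CPM (log2 fold change -0.97 ± 0.15, adjusted p = 0.004). L5NP thus had the most NTS of any subclass and less NTSR1 than the other glutamatergic nuclei. PDYN, prodynorphin, was at 0.598 and 0.943 CPM against 10.1 and 8.97 CPM (log2 fold change -3.88 ± 0.40, adjusted p = 0.00062). ADCYAP1, which encodes PACAP, was at 2.09 and 2.83 CPM against 13.6 and 8.90 CPM (log2 fold change -2.42 ± 0.36, adjusted p = 0.004). CCK, cholecystokinin, was at 15.5 and 29.7 CPM against 61.9 and 65.8 CPM (log2 fold change -1.74 ± 0.26, adjusted p = 0.0037). All 3 were lower in L5NP in both animals.

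Among 63 potassium channel genes 8 were higher and 22 lower (12.7% and 34.9%, beside 5.38% and 8.86% of all genes with a symbol, median -0.48), against 13 higher and 17 lower with the unweighted mean of subclasses. KCNQ5, of the M-current family, was at 119 and 97.7 CPM against 944 and 816 CPM in animals 1 and 2 (log2 fold change -3.21 ± 0.14, adjusted p = 2.4e-05). By subclass KCNQ5 was at 328 and 309.9 CPM in L6CT, 30.9 and 39.7 CPM in L6b and 714 CPM or more in every IT subclass and L5PT. KCNH7, an ERG channel, was at 392 and 430.2 CPM against 1716 and 1619 CPM (log2 fold change -2.21 ± 0.12, adjusted p = 4.4e-05). The EAG channel KCNH1 was lower too (log2 fold change -1.64 ± 0.12, adjusted p = 0.00011), but KCNH2, another ERG channel, was higher (log2 fold change 1.12 ± 0.25, adjusted p = 0.024). The A-type channels KCND2 and KCND3 were lower, with log2 fold changes of -1.40 ± 0.11 and -1.77 ± 0.15 (adjusted p = 0.0002 and 0.00023). Their calcium-binding partners split. KCNIP1 was higher, at 310.1 and 375 CPM against 71.3 and 61.3 CPM (log2 fold change 2.18 ± 0.14, adjusted p = 7.7e-05). KCNIP3 was lower (log2 fold change -1.59 ± 0.14, adjusted p = 0.00024). The BK channel subunit KCNMB4 (log2 fold change 1.04 ± 0.12, adjusted p = 0.00094) and the modifier subunit KCNG2 (log2 fold change 1.49 ± 0.17, adjusted p = 0.001) were higher.

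Of 26 sodium, calcium and HCN channel genes 1 was higher and 6 lower (3.85% and 23.1%, beside 5.38% and 8.86% of all genes with a symbol, median -0.31), or 2 and 13 with the animal as a block. HCN4, a pacemaker channel, was higher at 58.0 and 60.4 CPM against 30.7 and 17.3 CPM (log2 fold change 1.12 ± 0.24, adjusted p = 0.019). The lower ones included calcium channel genes. CACNA2D3, an auxiliary subunit, had a log2 fold change -2.15 ± 0.33, adjusted p = 0.0042. CACNG3, which also escorts AMPA receptors, had a log2 fold change -1.27 ± 0.15, adjusted p = 0.0013. CACNA1C, the L-type channel Cav1.2, had a log2 fold change -0.66 ± 0.12, adjusted p = 0.01. CACNB1 was lower too (log2 fold change -0.62 ± 0.16, adjusted p = 0.043), but was not called with nuclei named from other genes (adjusted p = 0.085). The sodium channel SCN1A was lower (log2 fold change -0.62 ± 0.13, adjusted p = 0.015). Of 4 neurofilament genes 0 were called in the unblocked fit, beside 14.2% of all genes with a symbol. NEFL, at 26.0 and 25.9 CPM against 16.7 and 14.7 CPM, was called as higher with the block (adjusted p = 0.0058), and 1 neurofilament gene was called as higher against the unweighted mean of subclasses.

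Of 62 axon guidance genes 5 were higher and 20 lower (8.06% and 32.3%, beside 5.38% and 8.86% of all genes with a symbol, median -0.28), or 12 and 18 against the unweighted mean of subclasses. All 3 SLIT ligands were lower. SLIT2 was at 14.95 and 37.7 CPM against 226 and 230.1 CPM (log2 fold change -3.38 ± 0.33, adjusted p = 0.00045). SLIT1 was at 386 and 335 CPM against 854 and 793 CPM (log2 fold change -1.38 ± 0.12, adjusted p = 0.00024). Their receptor ROBO2 was lower as well (log2 fold change -0.98 ± 0.24, adjusted p = 0.033). Netrin receptors split. DCC, the attractive receptor, was higher at 1181 and 1062 CPM against 265 and 174 CPM (log2 fold change 2.17 ± 0.17, adjusted p = 0.0002). By subclass it was at 31.0 and 31.1 CPM in L5PT and 852 and 819 CPM in L6b. UNC5D, a repulsive receptor, was lower at 285 and 218 CPM against 1238 and 1284 CPM (log2 fold change -2.52 ± 0.15, adjusted p = 6.0e-05). UNC5C and UNC5A had log2 fold changes of -0.85 ± 0.13 and -0.69 ± 0.15 (adjusted p = 0.0043 and 0.021).

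Semaphorins and their receptors were also mixed. SEMA3E was higher, at 34.7 and 52.8 CPM against 7.79 and 8.07 CPM (log2 fold change 2.25 ± 0.22, adjusted p = 0.00052). SEMA3C was higher, at 46.3 and 79.7 CPM against 15.7 and 12.6 CPM (log2 fold change 1.95 ± 0.25, adjusted p = 0.0017). The receptor NRP2 was higher (log2 fold change 1.04 ± 0.22, adjusted p = 0.021). In contrast SEMA3A was lower, at 30.2 and 41.5 CPM against 147 and 178 CPM (log2 fold change -2.40 ± 0.20, adjusted p = 0.00023). PLXND1, the receptor of SEMA3E, was lower, at 11.1 and 12.7 CPM against 77.1 and 48.8 CPM (log2 fold change -2.60 ± 0.25, adjusted p = 0.00041). Among Eph receptors EPHA5 was higher (log2 fold change 0.91 ± 0.11, adjusted p = 0.0015). EPHA3, EPHA4 and EPHA7 were lower, with log2 fold changes of -3.21 ± 0.21, -2.14 ± 0.19 and -0.76 ± 0.14 (adjusted p = 8.0e-05, 0.00032 and 0.01). The ligand EFNA5 was lower (log2 fold change -1.89 ± 0.12, adjusted p = 7.6e-05).

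Cadherins and protocadherins gave 4 higher and 10 lower of 35 (11.4% and 28.6%, beside 5.38% and 8.86% of all genes with a symbol, median -0.25), or 8 and 8 against the unweighted mean of subclasses. CDH8 was lower, at 77.7 and 84.4 CPM against 667 and 519.8 CPM (log2 fold change -3.06 ± 0.14, adjusted p = 3.0e-05). CDH13 and CDH20 had log2 fold changes of -2.50 ± 0.17 and -3.64 ± 0.31 (adjusted p = 8.4e-05 and 0.00024). CDH10 was higher, at 975 and 1414 CPM against 424 and 490.4 CPM (log2 fold change 1.19 ± 0.20, adjusted p = 0.0065). CDH6 (log2 fold change 0.94 ± 0.19, adjusted p = 0.015) and PCDH7 (log2 fold change 1.28 ± 0.14, adjusted p = 0.0008) were also higher. Synaptic adhesion genes gave 6 higher and 20 lower of 78 (7.69% and 25.6%, median -0.25), or 10 and 33 with the block and 15 and 23 against the unweighted mean of subclasses. The contactin CNTN6 was lower, at 17.0 and 26.9 CPM against 262 and 238 CPM (log2 fold change -3.74 ± 0.20, adjusted p = 3.7e-05). CNTN4 and CNTN3 were lower with it (-2.45 ± 0.13 and -1.97 ± 0.16 on the log2 scale, adjusted p = 3.6e-05 and 0.0002). Teneurins split. TENM1 was higher, at 509.5 and 451 CPM against 197 and 163 CPM (log2 fold change 1.23 ± 0.12, adjusted p = 0.0005). TENM2 and TENM3 were lower (-0.72 ± 0.12 and -0.95 ± 0.19, adjusted p = 0.0058 and 0.015). ELFN1, a postsynaptic organiser, was higher at 6.58 and 3.77 CPM against 0.396 and 0.466 CPM (log2 fold change 3.42 ± 0.46, adjusted p = 0.0022).

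Of 14 synaptotagmin and complexin genes 5 were higher and 2 lower (35.7% and 14.3%, beside 5.38% and 8.86% of all genes with a symbol, median 0.06). SYT9, a fast calcium sensor of vesicle release, was at 187 and 187 CPM against 49.5 and 43.8 CPM (log2 fold change 1.82 ± 0.12, adjusted p = 7.4e-05). SYT2, its close relative, was at 12.3 and 24.5 CPM against 6.08 and 4.33 CPM (log2 fold change 1.60 ± 0.34, adjusted p = 0.02). The complexin CPLX1 was at 140.2 and 187 CPM against 58.9 and 59.5 CPM (log2 fold change 1.27 ± 0.16, adjusted p = 0.0018). All 3 were higher in L5NP, beside SYT6 and CPLX3. SYT16 was lower (log2 fold change -1.06 ± 0.12, adjusted p = 0.001) beside SYT17. Of 17 activity-regulated genes 0 were called higher by edgeR, with or without the block, or by DESeq2, and 5 were lower (29.4%, beside 8.86%, median -1.24), against 10 with the block, 4 with DESeq2 and 2 against the unweighted mean of subclasses. FOSL2, a subunit of AP-1, was at 2.09 and 1.42 CPM against 13.0 and 15.2 CPM (log2 fold change -3.15 ± 0.34, adjusted p = 0.00072). NPTX2, a secreted pentraxin, had 2 UMIs in L5NP and was 21.0-fold lower (counting interval 5.79 to 173). EGR4 was lower (log2 fold change -1.75 ± 0.42, adjusted p = 0.033). EGR1 was lower as well (log2 fold change -1.24 ± 0.32, adjusted p = 0.047), but not with nuclei named from other genes (adjusted p = 0.098). The immediate early genes FOS (1.50 and 2.36 CPM against 2.32 and 2.75 CPM) and ARC (1.50 and 1.89 CPM against 2.95 and 2.46 CPM) did not pass (adjusted p = 0.47 and 0.26).

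Markers of other cells were low in L5NP, but not equal to those of the other glutamatergic nuclei. Calls among them stand beside 14.2% of all genes with a symbol. The summed level of 7 astrocyte markers was 577 to 766 CPM in the L5NP libraries and 279 to 341 CPM in the other nuclei, against 18986 to 20711 CPM in astrocytes. By subclass it was 501 to 732 CPM in IT_C, 484 to 600 CPM in L6CT and 521 to 848 CPM in L6b, but 156 to 185 CPM in IT_A, so IT_C, L6CT and L6b had sums near that of L5NP. SLC1A2, the glutamate transporter GLT-1, made up most of it at 543 and 683 CPM against 244 and 293 CPM (log2 fold change 0.99 ± 0.17, adjusted p = 0.0075), the other called gene, ALDH1L1, was lower (log2 fold change -2.18 ± 0.35, adjusted p = 0.0053), and AQP4 was at 2.99 and 3.77 CPM against 1.69 and 1.54 CPM (adjusted p = 0.25). The 6 oligodendrocyte markers summed to 133 to 152 CPM against 100 to 109 CPM with 0 called, or 1 with equal nuclei and 2 with the block, MBP as higher (adjusted p = 0.0024). The 9 GABAergic markers summed to 32.9 to 45.2 CPM against 44.6 to 48.3 CPM, with ADARB2 and LAMP5 called as lower, and 0 called with equal nuclei or against the unweighted mean of subclasses, where LAMP5 changed sign. Microglial markers summed to 0 to 3.11 CPM, with PTPRC and P2RY12 at 0, and endothelial markers to 15.8 to 23.0 CPM against 15.3 to 21.4 CPM, with CDH5 at 0. Of 2 oligodendrocyte precursor markers tested none was called, and OLIG2 was at 0. The part of these transcripts in the gene lists was not tested.

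To place L5NP among its neighbours, mean log-normalised profiles over the 3000 most variable genes were correlated between subclasses within each animal. L6CT was most like L5NP, with a Spearman's rho of 0.888 and 0.865 in animals 1 and 2, followed by IT_C (0.850 and 0.838), L5PT (0.838 and 0.828), IT_A (0.839 and 0.825), IT_B (0.826 and 0.815), L6b (0.785 and 0.765) and IT_D (0.695 and 0.781). The range of L6CT over the 2 animals lay above the others. The range of IT_A overlapped those of IT_C, L5PT and IT_B, and the range of IT_D overlapped that of L6b. The values are paired within an animal, and in both animals IT_C was above IT_A and IT_A above IT_B. IT_A and L5PT changed order between the animals, as did IT_D and L6b, with IT_D above L6b in animal 2. With 2 animals the order within these was not settled. The L5NP profiles of the 2 animals correlated at 0.881, and all subclasses of an animal share its libraries. Over all genes above 20 CPM the L5NP profiles correlated at 0.971 between animals, against 0.919 with L6CT, and by Pearson's r at 0.975 against 0.832. These correlations run across genes, which are not independent replicates. The place of L6b depended on the measure. By Pearson's r it was next to L6CT (0.801 and 0.832), and over all genes above 20 CPM it was at 0.865, below IT_C at 0.869. With equal nuclei in each subclass (56 and 53 per animal) L6CT and L6b were at 0.757 and 0.755 on average (0.7695 and 0.7659 in animal 1, but 0.7439 and 0.7442 in animal 2, where L6b was above L6CT), ahead of the other 5.

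**Figure D5:**
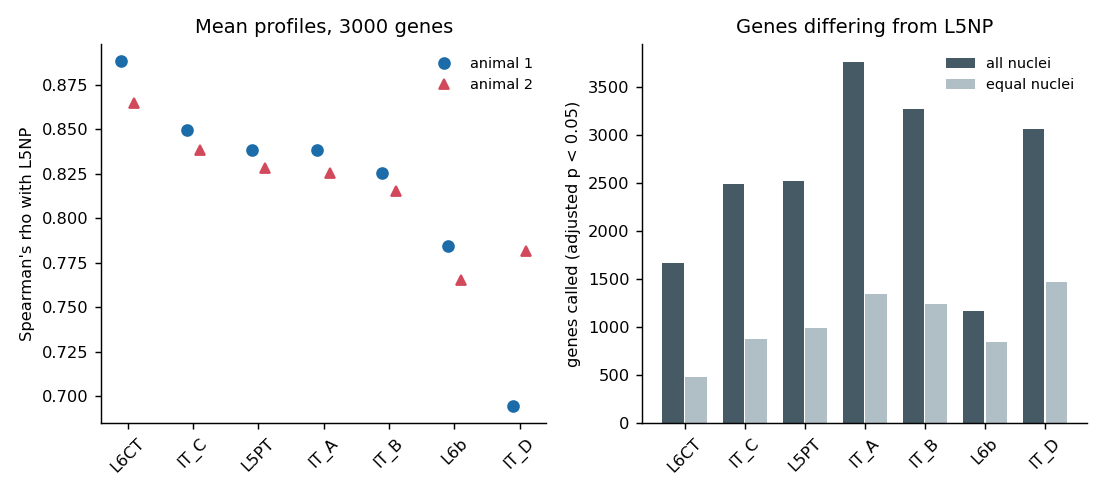
Left, Spearman's rho between the mean profiles of L5NP and each other glutamatergic subclass, by animal, over 3000 genes (the axis does not start at 0); right, genes called by edgeR between L5NP and each subclass with all nuclei and with equal nuclei per subclass. L6CT has the highest rho and, with equal nuclei, the fewest called genes, 480.

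Counts of called genes gave a partly different order. In the fit over 8 subclasses 1671 of 17871 genes were called between L5NP and L6CT (9.35%), 2491 against IT_C (13.9%), 2520 against L5PT (14.1%), 3067 against IT_D (17.2%), 3266 against IT_B (18.3%) and 3760 against IT_A (21.0%). L6b gave 1164 (6.51%) from 109 nuclei. With equal nuclei the counts were 480 for L6CT, 846 for L6b, 873 for IT_C, 991 for L5PT, 1244 for IT_B, 1347 for IT_A and 1469 for IT_D, of 8061 genes tested. With the animal as a block the counts were 2994 for L6CT, 3981 for IT_C, 4076 for L5PT, 4803 for IT_B and 5701 for IT_A. Those for L6b and IT_D are not given here, so no lowest count is read from these.

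Against L6CT the 5 largest excesses in L5NP were SMOC2 (log2 difference 6.70 ± 0.54, adjusted p = 1.7e-06), PGM5, of the cell adhesion plaque (log2 difference 6.69 ± 0.48, adjusted p = 6.9e-07), NTS (log2 difference 5.93 ± 0.31, adjusted p = 8.1e-08), ARHGEF38 (log2 difference 5.37 ± 0.31, adjusted p = 2.4e-07) and PHEX (log2 difference 5.22 ± 0.36, adjusted p = 4.3e-07). PGM5 was at 35.0 and 41.0 CPM in L5NP and at 0.402 and 0.256 CPM in L6CT. The 5 largest deficits included both parts of a growth factor signalling system, RET, the receptor tyrosine kinase for GDNF family ligands, and GFRA2, its co-receptor for neurturin (log2 difference -3.18 ± 0.33, adjusted p = 2.2e-05). RET had 2 UMIs in all L5NP nuclei and 756 in L6CT, 67.6-fold more (counting interval 18.6 to 559). The others were SLIT3 (log2 difference -3.57 ± 0.26, adjusted p = 6.9e-07), TPD52L1 (log2 difference -3.53 ± 0.27, adjusted p = 1.1e-06) and EYA2, a transcriptional coactivator and phosphatase (log2 difference -3.29 ± 0.15, adjusted p = 2.8e-08), which was at 15.8 and 14.6 CPM in L5NP against 133 and 143 CPM.

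Against IT_C the largest excesses were FGFRL1 (log2 difference 6.89 ± 0.46, adjusted p = 1.2e-07), MET, the receptor of hepatocyte growth factor (log2 difference 6.63 ± 0.38, adjusted p = 1.3e-07), PRLR, the prolactin receptor (log2 difference 6.17 ± 0.48, adjusted p = 5.1e-07), SMOC2 (log2 difference 5.75 ± 0.52, adjusted p = 2.0e-06) and NXPH2 (log2 difference 5.73 ± 0.28, adjusted p = 7.2e-09). MET and PRLR were also present in L6CT, at 45.1 and 27.1 CPM and at 200 and 155 CPM, against 84.0 and 51.9 CPM and 358 and 122 CPM in L5NP. The largest deficits were LMCD1, a LIM-domain regulator with 2 UMIs in L5NP (71.9-fold lower, counting interval 19.8 to 595), GLYATL3 (log2 difference -4.86 ± 0.53, adjusted p = 1.3e-05), FAM163A (log2 difference -4.76 ± 0.47, adjusted p = 8.6e-06), CALD1 (log2 difference -4.76 ± 0.45, adjusted p = 2.9e-06) and COL25A1, a membrane collagen (log2 difference -4.43 ± 0.42, adjusted p = 3.1e-06). COL25A1 was at 48.1 and 32.6 CPM in L5NP and 957 and 659 CPM in IT_C.

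Within L5NP the animals were compared by the levels in their libraries. Of 3896 genes at 50 CPM or more in at least 1 animal, 2104 (54.0%) had both libraries of an animal above both of the other, and 31 did so by 2-fold or more, 10 of them higher in animal 2. Between the libraries of an animal 0 genes (animal 1) and 4 genes (animal 2) reached 2-fold. Higher in animal 2 were SMOC2 (44.4 and 46.6 against 126 and 114 CPM, 2.65-fold) and ANGPT1, the ligand of TEK (67.5 and 50.3 against 114 and 185 CPM, 2.51-fold), followed by SYK (2.22-fold), PRKX (2.02-fold) and HOMER1 (2.00-fold). In the other glutamatergic nuclei the same ratios were 1.10 for SMOC2, 1.56 for ANGPT1, 1.69 for SYK, 1.25 for PRKX and 2.22 for HOMER1. HOMER1, a postsynaptic scaffold, thus reached 2-fold in both sets of nuclei. Higher in animal 1 were LHFPL2 (66.3 and 69.6 against 14.8 and 17.3 CPM, 4.23-fold), PDE3A (3.56-fold), PRLR (362 and 353 against 116 and 129 CPM, 2.93-fold), GULP1 (2.49-fold) and DISP1 (2.42-fold). The ratios in the other nuclei were 1.64 for LHFPL2, 1.79 for PDE3A, 1.57 for PRLR, 1.49 for GULP1 and 1.58 for DISP1. With 2 animals these are descriptions without a test.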

How the data were processed

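Per the labels and the study's methods, nuclei of opossum V1 were profiled with 10x 3' v3 chemistry, and the authors counted unique molecular identifiers per gene, introns included, with Cell Ranger 6.1.1 (the deposited matrices carry the header version 7.1.0) on ASM229v1 with an Ensembl annotation whose genes they had extended at the 3' ends. The deposited values are raw counts. The authors kept nuclei with 700 to 6500 genes and clustered them. They named subclasses from canonical markers and whole-transcriptome classification, except the IT subclasses, which they took from unsupervised clusters. The deposited table gives each nucleus its subclass. It also holds the Scrublet doublet score, which the authors computed as a fraction between 0 and 1, and their doublet call. Of 36558 barcodes, 32764 carried a subclass. The libraries held 59170718, 55625042, 61251720 and 69706055 UMIs, and the precision of a sum is limited by the 2119807 UMIs of L5NP in animal 2. Of 30800 genes, 11590 have a symbol in the files (37.6%) and only these are named.

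Counts were summed per subclass and animal and tested with edgeR 4.0.16 (R 4.3.3; TMM scaling, filterByExpr, quasi-likelihood test, Benjamini-Hochberg adjustment, threshold 0.05), on 4 sums for L5NP against the rest and on 16 sums for the 8 subclasses. CPM is the sum divided by its total, and ± after a log2 value is the SE. Libraries of an animal were not treated as replicates. On simulated data the test recovered 27% of genes changed 2-fold and 63% of those changed 4-fold against the rest, with 2 false calls, and 32% and 74% against L6CT, with 3. Label transfer used 30 components, 15 neighbours and at most 500 training nuclei per subclass. DESeq2 1.42.0 was an alternative, as were RLE scaling, no low-count filter, equal nuclei, exclusion of doublets, labels from other genes, the unweighted mean of subclasses, and each animal left out. Python 3.11.15 with scipy 1.17.1 and scikit-learn 1.9.0 served the rest. L5NP and the other nuclei of an animal come from 1 animal, which pairs the sums (correlation of deviations 0.25).

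The 12 named genes per direction were those with the largest change among genes with a symbol, an adjusted p under 0.05, the same direction in both animals and at least 20 CPM in both animals on the higher side, and the 5 per direction against IT_C and L6CT were chosen likewise. Genes between animals needed 50 CPM. List members outside these were named as examples after their values were seen. The members and lists were chosen with earlier results of these data known. Some list members are not reported here. The planned Fisher's exact tests of the L5NP share between the libraries of an animal are left out, since nuclei are not replicates.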

Additional observations from a re-analysis of the deposited data

How the results depend on the processing

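The numbers of genes called depended on pairing and on depth. With the animal as a replicate block 4778 genes were called against all other glutamatergic nuclei, 5701 against IT_A, 3981 against IT_C, 4076 against L5PT and 2994 against L6CT, and no call of the 3 markers was lost. With equal nuclei per subclass 1347 genes were called against IT_A, 1244 against IT_B, 873 against IT_C, 1469 against IT_D, 991 against L5PT and 480 against L6CT, from fewer nuclei and 8061 genes tested. Without a low-count filter 3504 of 29025 genes were called against all others. Spearman's rho with IT_A, IT_B, IT_C, IT_D, L5PT and L6b was 0.784, 0.780, 0.815, 0.666, 0.812 and 0.798 over 1000 genes. With equal nuclei rho was 0.676, 0.693, 0.721, 0.662, 0.725 and 0.755 for those 6 and 0.757 for L6CT. Over all genes above 20 CPM it was 0.820 for IT_A, 0.869 for IT_C, 0.864 for L5PT, 0.919 for L6CT and 0.865 for L6b. Pearson's r was 0.501 for IT_A, 0.528 for IT_B, 0.669 for IT_C, 0.450 for IT_D, 0.611 for L5PT, 0.832 for L6CT and 0.801 for L6b. Label transfer fell to 80.3% with nuclei thinned to 1000 UMIs. At 4-fold 10 genes were restricted to L5NP. Without doublets the other nuclei had a median of 8082 UMIs and 15.9% of L5NP nuclei had a UMI of NXPH3. Thinned to 2000 UMIs, 4.77% had one of NXPH3, 1.64% of TSHZ2 and 8.86% of FEZF2. For these results the cause was not tested. Of 192 values of the 24 named genes under alternatives with a test, 188 kept direction and side of the threshold, and 0 reversed. With 1 animal left out no spread remains, so counts of genes had no test. The log2 ratios then ranged from 2.88 to 2.93 for NXPH3, 1.35 to 2.52 for TSHZ2 and 1.55 to 2.06 for FEZF2, and without replicate 1 they were -6.12 for SYT17 and -4.65 for TLE3.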

Other observations

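The deposited table names each nucleus at a finer level of types as well. Beside the 744 L5NP nuclei, 8 nuclei of the type L5NP carried the subclass L6CT, 4 in each animal. Pooled, they had 1201 CPM of FOXP2 from 79 UMIs, against 1547 CPM in the other 3621 L6CT nuclei and 770 CPM in L5NP nuclei. They held 2 UMIs of NXPH3, 1 of FEZF2 and 0 of TSHZ2. With 65780 UMIs in all, a count of 0 for TSHZ2 does not set these nuclei apart from L5NP nuclei, where it was at 8.60 CPM.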
